A study of Mus musculus with 18 samples.

Results

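The 10 genes described here encode heat shock chaperones and their regulator in mouse macrophages. They are Hspa1a and Hspa1b (the inducible HSP70 genes), Hspa8 (the constitutive HSP70), Hsph1, Dnajb1 and Dnaja1 (partners of HSP70), Hsp90aa1 (an HSP90), Hspd1 and Hspe1 (the mitochondrial chaperonin and its lid) and Hsf1 (the heat shock factor). Each was chosen by its symbol, as the row of the deposited count table whose Ensembl identifier maps to it. No measured value took part in this rule, but the 10 genes were chosen with earlier results of these data known. The rule gave 10 of the 50600 genes in the table, and all 10 were among the 15663 genes with enough counts to be tested.

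RNA-seq was carried out on bone marrow-derived macrophages (BMDMs), which are macrophages grown in culture from bone marrow, of wild-type (WT) mice and of mice that lack the transcription factor IRF5 (IRF5 KO). The study asked how defactinib, an inhibitor of the kinases FAK and PYK2, changes the response to lipopolysaccharide (LPS), a bacterial cell wall component that activates TLR4, and whether this depends on IRF5. There were 18 libraries in 6 groups of 3. Each genotype was left unstimulated, or was given DMSO, the solvent of the drug, or 3.5 μM defactinib for 1 h and then LPS at 100 ng/ml for 2 h. The marrow of all 6 groups was cultured with GM-CSF over 8 days. The methods give male C57BL/6J mice of 8 to 11 weeks, and do not describe the source or the deleted part of the IRF5 KO mice. The titles of the unstimulated libraries name DMSO while their columns in the table are marked as untreated, so that whether they received the solvent is not settled. The labels do not say whether the 3 libraries of a group came from separate mice, and p-values measure the spread between these libraries.

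Heat shock proteins are chaperones: they hold unfolded proteins, help them to fold or pass them on for degradation. HSP70 proteins do this in cycles of ATP hydrolysis that J proteins such as DNAJB1 and DNAJA1 start and HSP110 proteins such as HSPH1 reset by exchanging the nucleotide. In unstressed cells the transcription factor HSF1 is kept inactive by chaperones, and when unfolded proteins draw these away it forms trimers and binds heat shock elements, which are alternating blocks of GAA and TTC, in the promoters of chaperone genes. Hspa1a and Hspa1b lack introns and are almost silent in many unstressed cells, whereas Hspa8 is transcribed at a high level at all times.

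In the mm10 build both inducible genes lie on the minus strand of chromosome 17, Hspa1a at chr17:34969190-34972156 and Hspa1b at chr17:34956436-34959238, and each has 1 exon. A further gene, Gm20481, overlaps Hspa1a on the other strand. Hspd1 (chr1:55077835-55088243, minus strand) and Hspe1 (chr1:55088132-55091307, plus strand) lie head to head and overlap at their starts. The other genes are Hspa8 (chr9:40800984-40810087, plus strand), Hsph1 (chr5:149614287-149636376, minus strand), Dnajb1 (chr8:83608193-83612653, plus strand), Dnaja1 (chr4:40722150-40737149, plus strand), Hsp90aa1 (chr12:110690605-110702728, minus strand) and Hsf1 (chr15:76477422-76501913, plus strand).

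Promoter sequences of RefSeq (GRCm38.p6, the assembly of mm10), from 250 bases before to 50 bases after each annotated start, were given for 7 of the 10 genes, in 12 windows. They are shown because the heat shock element is the feature by which these genes are known to be switched on together. The 250 bases before the starts of Hspa1a (chr17:34972157-34972406) and of Hspa1b (chr17:34959239-34959488), both read on the minus strand, were identical at 247 of 250 positions. Capitals mark the one match in each to GAANNTTC, where N is any base, which begins 104 bases before the start:
Hspa1a: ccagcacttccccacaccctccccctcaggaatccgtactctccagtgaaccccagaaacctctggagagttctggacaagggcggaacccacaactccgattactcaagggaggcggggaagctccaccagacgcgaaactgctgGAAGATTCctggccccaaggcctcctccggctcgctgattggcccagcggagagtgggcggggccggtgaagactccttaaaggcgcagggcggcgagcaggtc
Hspa1b: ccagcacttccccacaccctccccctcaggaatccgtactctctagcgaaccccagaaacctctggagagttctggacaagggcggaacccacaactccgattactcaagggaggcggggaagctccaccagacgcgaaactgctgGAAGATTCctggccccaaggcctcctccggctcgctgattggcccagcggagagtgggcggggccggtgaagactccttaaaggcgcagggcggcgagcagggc

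Runs of 3 or more alternating blocks were also sought, each block 2 bases from the next. Such runs were found between a start of Hspd1 (chr1:55087932) and one of Hspe1 (chr1:55088148), which share them, and just after a start of Hsph1. The stretches of 30 bases around them, with the blocks and the bases between them in capitals, are chr1:55088053-55088082 read on the plus strand for Hspe1 and on the minus strand for Hspd1, and chr5:149636279-149636308 read on the minus strand for Hsph1:
Hspe1: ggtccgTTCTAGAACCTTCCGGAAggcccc
Hspd1: ggggccTTCCGGAAGGTTCTAGAAcggacc
Hsph1: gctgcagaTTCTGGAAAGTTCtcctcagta

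A match to GAANNTTC or TTCNNGAA, each of which reads the same on both strands and which may overlap, was present for 6 of the 7 genes with a window, all except Dnajb1, and in the windows of 16.97% of all 27025 genes. Matches to 3 alternating blocks were present for 3 of the 7 genes and for 0.662% of all genes. The window at the other annotated start of Hspd1 (chr1:55088243) held neither kind of match. Such a match is a description of letters and not a measured binding site, and the absence of one from the windows of Dnajb1 says only that these letters are not in them.

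The libraries held 39282181 to 61949143 counted read pairs. Levels are given as CPM, the counts of a gene divided by those of its library on a common scale, after TMM scaling, a correction for differences in composition between libraries. All 8 macrophage markers were detected in every library, from Lyz2 at 7705 to 15899 CPM to Mertk at 25.7 to 182 CPM. The 6 markers of T, B and NK cells summed to at most 0.921 CPM. The 6 of neutrophils summed to more in each library with LPS than in any without, at 43.5 to 59.8 against 91.8 to 174 CPM in WT and 51.3 to 62.0 against 118 to 146 CPM in IRF5 KO libraries. S100a8 and S100a9 made up most of this, while Mpo, Elane and Ly6g reached at most 0.407, 0.437 and 1.09 CPM. The 6 markers of mast cells and basophils summed to 6.87 to 11.3 CPM in WT and 10.5 to 21.7 CPM in IRF5 KO libraries, without overlap in unstimulated cells (6.87 to 7.92 against 15.8 to 21.2 CPM). Kit, at 6.29 to 20.8 CPM, made up most of this, while Ms4a2 and Fcer1a reached at most 0.137 and 0.0485 CPM. The summed levels of the 6 dendritic cell markers did not overlap between the WT groups. They were 103 to 114 CPM unstimulated, 364 to 472 CPM after LPS with DMSO and 40.3 to 85.5 CPM after LPS with defactinib. Most of this was Ccr7 and Zbtb46, and Siglech reached at most 0.168 CPM. After LPS with defactinib, IRF5 KO libraries had 231 to 245 CPM of these markers, and 17873 to 18836 CPM of the macrophage markers against 10771 to 15278 CPM in WT. The share of mitochondrial counts was 0.671% to 0.913% in WT LPS DMSO and 1.05% to 1.26% in WT LPS defactinib. The part of these in the results was not tested. Irf5 counts over the whole gene were 335 to 435 CPM in the IRF5 KO libraries and 213 to 650 CPM in the WT libraries, and since the deleted part is not stated they do not check the genotype.

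The group IRF5 KO LPS DMSO was not uniform, and this touches every comparison that uses it. Because all 18 libraries were fitted together with a shared spread for each gene, it also touches the p-values of the other comparisons. For Hspa1a and LPS in WT cells, the edgeR adjusted p was 0.0664 with all libraries and 1.56e-05 without replicate 3 of this group. Replicates 1 and 2 of this group differed from each other by a chi-square of 2.33 per gene, the lowest of the 18 pairs of replicates, and from replicate 3 by 442 and 426, the highest. Over the 15663 tested genes, replicates 1 and 2 correlated best with the IRF5 KO LPS defactinib libraries (r = 0.985 to 0.987 across genes), and replicate 3 with the unstimulated IRF5 KO libraries (r = 0.978 to 0.979 across genes). Counts of the gene Gm26917 moved with the same split, from 0.00546% to 0.0154% of all counts in the unstimulated libraries, WT LPS DMSO and IRF5 KO LPS DMSO replicate 3, to 1.06% to 4.15% in the 6 defactinib libraries and 2.57% and 2.56% in replicates 1 and 2 of IRF5 KO LPS DMSO. Its part in the results was not tested. The labels of these libraries are therefore in doubt, which was not resolved here, and every value of the group is that of the libraries so labelled. Main results that rest on this group are given with it whole and also without replicate 3 or without replicates 1 and 2, the latter an alternative chosen after seeing the data which leaves 1 library that is assumed to vary like those of the other groups.

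Genes were called changed at a Benjamini-Hochberg adjusted p (edgeR quasi-likelihood F test) below 0.05 together with a fold change above 2, which is a log2 fold change beyond 1. The share of all tested genes that met the same rule is given beside each count, since it shows how common a call was. In WT cells LPS with DMSO against unstimulated called 1 of the 10 genes higher, Hspa1b, where 11.6% of all tested genes were called higher, and 4 of the 10 passed the adjusted p alone, against 41.8% of all genes. In IRF5 KO cells the same comparison called 2 genes higher, Hspa1a and Hspa1b, where 7.07% of all genes were called higher, and 5 passed the adjusted p alone, against 37.5%. Both calls were kept in each fit that left out libraries of IRF5 KO LPS DMSO. The number past the adjusted p alone was 3 without replicate 1 (against 15.7% of all genes) or 2 (against 16%), 9 without replicate 3 (58.3%) and 2 without both of replicates 1 and 2 (4.76%). The median log2 fold change of the 10 genes was 0.10 in WT cells and 0.39 in IRF5 KO cells, beside 0.01 for all tested genes in IRF5 KO cells and -0.0045 in WT cells.

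Defactinib against DMSO, both with LPS, called 3 genes higher in WT cells, Hspa1a, Hspa1b and Hsph1, where 10.4% of all genes were called higher. A further 5 passed the adjusted p alone, 4 of them upwards, so that 8 of the 10 passed against 57.0% of all genes. The median log2 fold change of the 10 genes was 0.72 and that of all tested genes 0.09. In IRF5 KO cells none of the 10 was called by edgeR, where 0.919% of all genes were called, and 1 passed the adjusted p alone, Dnajb1, against 3.36%. The same 1 gene had an unadjusted p below 0.05, a rule for which the share of all genes was not computed. DESeq2 and limma-voom called 0 genes as well. With replicates 1 and 2 of IRF5 KO LPS DMSO left out, 3 genes were called in IRF5 KO cells, Hspa1a, Hspa1b and Dnajb1, all higher, where 4.63% of all genes were then called higher. By adjusted p alone 7 of the 10 then passed, against 41.0%. The comparisons of LPS and of defactinib within a genotype share the LPS DMSO libraries, with opposite sign.

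Between genotypes, none of the 10 was called in unstimulated cells, where 7.31% of all genes were called, and 1, Hsp90aa1, passed the adjusted p alone, against 15.3% of all genes. This was 4 without replicate 3 of IRF5 KO LPS DMSO (25.3% of all genes) and without its replicates 1 and 2 (against 23%), with Hspa1b, Hspe1 and Hsf1 added in both. It was 5 with library size alone (16.9%), 6 with only the groups compared (43.1%), and 0 without WT unstimulated replicate 2 or 3 or IRF5 KO unstimulated replicate 1 or 2. By unadjusted p below 0.05 there were 3, and the share of all genes at this rule was not computed. DESeq2 and limma-voom called 0. After LPS with DMSO, Hspa1a, Hspa1b and Hsph1 were called lower in WT than in IRF5 KO cells, where 11.8% of all genes were called lower, and 9 of the 10 passed the adjusted p alone, against 52.2%. Without replicates 1 and 2 of IRF5 KO LPS DMSO this count was 0, where 8.36% of all genes were then called lower. By adjusted p alone 3 genes then passed, Hspa8, Hsph1 and Hspd1, against 32.9%. After LPS with defactinib, Dnajb1 was called lower in WT cells, where 8.87% of all genes were called lower, and 3 passed the adjusted p alone, against 36.3%. The latter were 5 without replicate 3 of IRF5 KO LPS DMSO, against 49.5%, with Hspa1a and Hspa1b added.

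The interaction tests ask whether an effect differs between WT and IRF5 KO cells. The effect of LPS was called different for Hspa1a, with the lower value in WT cells (-3.81, SE 1.19, adjusted p = 0.0401), where 3.49% of all genes were called in this direction, and 3 of the 10 passed the adjusted p alone, against 17.1%. Of these 3, Hspa1a and Hsph1 (-0.89) had the lower value in WT cells and Dnaja1 the higher (0.73). For Hspa1b the value was -3.04 (SE 1.01, adjusted p = 0.0513), not called, and it was called with library size alone, with the filter of 5 CPM, with DESeq2 and without replicate 3 of IRF5 KO LPS DMSO (adjusted p of 8.10e-08 to 0.0388). Without that replicate 4 genes were called, beside 23.6% of all genes, and 9 passed the adjusted p alone, against 46.7%. Of the called genes, Hspa1a, Hspa1b and Hsph1 had the lower value in WT cells and Dnaja1 the higher (1.01). Without replicate 1 or 2 of that group 1 passed the adjusted p alone, against 11.1% and 11.2%. The Hspa1a call was lost without any one library of WT unstimulated, WT LPS DMSO or IRF5 KO unstimulated, and also if replicate 1 or 2 of IRF5 KO LPS DMSO was left out, with adjusted p of 0.0521 to 0.109. The effect of defactinib differed for 4 genes, Hspa1a, Hspa1b, Hspa8 and Hsph1, with the higher value in WT cells, where 10.5% of all genes were called in this direction, and 8 passed the adjusted p alone, against 37.0%. Without replicates 1 and 2 of IRF5 KO LPS DMSO the effect of LPS differed for 0 of the 10, beside 6.48% of all genes then called, and 0 passed the adjusted p alone, against 12.2%. That of defactinib differed for 1, Dnajb1 with the lower value in WT cells, beside 19.1%, and 4 passed the adjusted p alone, against 32.4%. Dnajb1 was also called in this direction with limma-voom (-1.05), with the replicate number as a block (-1.01), with no filter on low counts (-1.01), and without WT LPS defactinib replicate 1 (-1.03) or either of replicates 1 (-1.09) and 2 (-1.06) of IRF5 KO LPS DMSO. Without replicate 3 of that group 4 genes were called with the higher value in WT cells and Dnaja1 with the lower (-1.05), beside 31.6% of all genes. By adjusted p alone 9 then passed, against 54.0%.

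**Figure D1:**
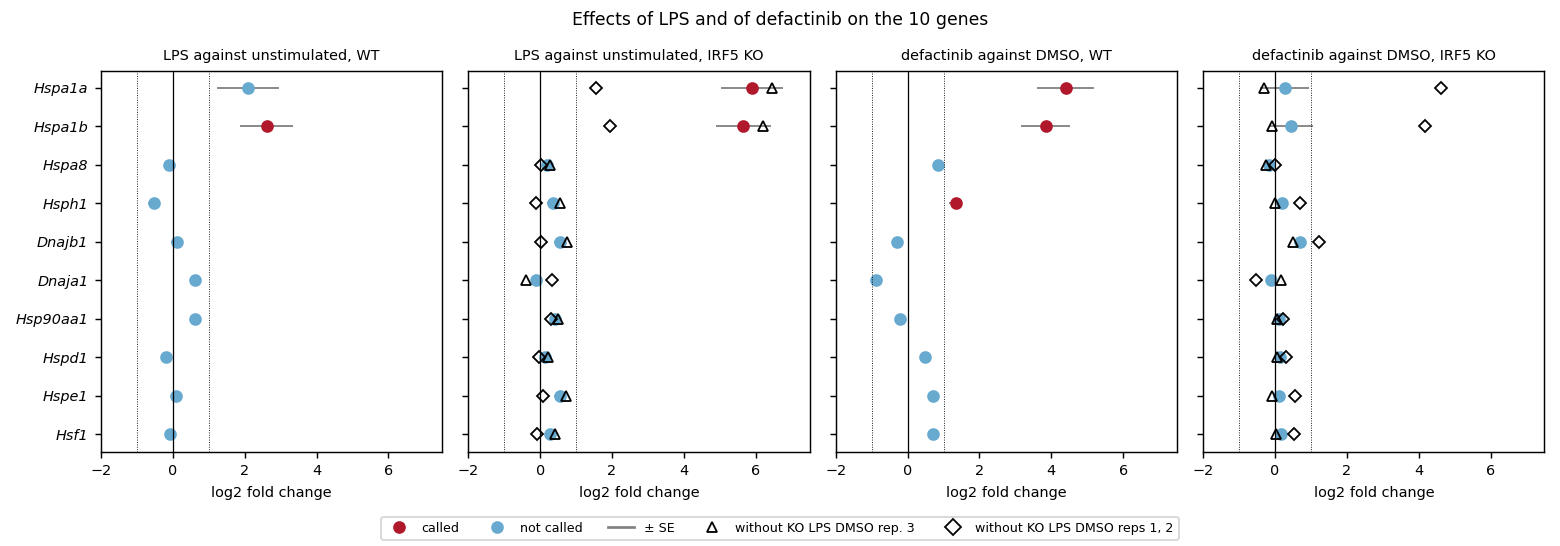
Log2 fold changes of the 10 genes (x axis) for LPS against unstimulated and for defactinib against DMSO in each genotype, with red points for called genes, blue points for the others and grey bars for ± SE, which are often smaller than the points. Open triangles and diamonds give the IRF5 KO values without replicate 3, and without replicates 1 and 2, of IRF5 KO LPS DMSO: for Hspa1a the effect of defactinib in IRF5 KO cells was 0.27 with all libraries, -0.30 without replicate 3 and 4.61 without replicates 1 and 2.

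The inducible HSP70 genes had the widest range of the 10. In WT cells Hspa1a was at 0.262, 0.490 and 0.701 CPM in replicates 1, 2 and 3 unstimulated, at 2.20, 1.97 and 2.01 CPM after LPS with DMSO and at 49.7, 52.0 and 28.7 CPM after LPS with defactinib. The 3 groups did not overlap, and the lowest defactinib library was far above the highest DMSO library. Hspa1a in IRF5 KO cells was at 0.888, 0.770 and 0.865 CPM unstimulated, at 75.3, 73.7 and 2.45 CPM after LPS with DMSO and at 56.0, 69.3 and 56.8 CPM after LPS with defactinib. Replicates 1 and 2 of IRF5 KO LPS DMSO were thus above all the defactinib libraries, and replicate 3 was near the WT LPS DMSO libraries. The unstimulated values rest on few reads, 14 to 34 counts per library in WT cells.

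Hspa1b followed a similar course. Its WT levels were 0.861, 0.490 and 0.619 CPM unstimulated, 4.36, 3.74 and 3.99 CPM after LPS with DMSO and 66.1, 64.6 and 43.1 CPM after LPS with defactinib, again with no overlap. Its IRF5 KO levels were 1.06, 0.981 and 1.34 CPM unstimulated, 85.6, 81.1 and 4.29 CPM after LPS with DMSO and 72.1, 88.8 and 72.7 CPM after LPS with defactinib. The 2 genes encode nearly the same protein, and 38.1% of the windows of 150 bases, the read length, in Hspa1a transcripts also occur in Hspa1b. Only uniquely mapped pairs were counted, so that the level of each gene leaves out reads that fit both, and summing the counts of the pair before the fit gave log2 fold changes of 4.06 for defactinib in WT cells and 5.77 for LPS in IRF5 KO cells.

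**Figure D2:**
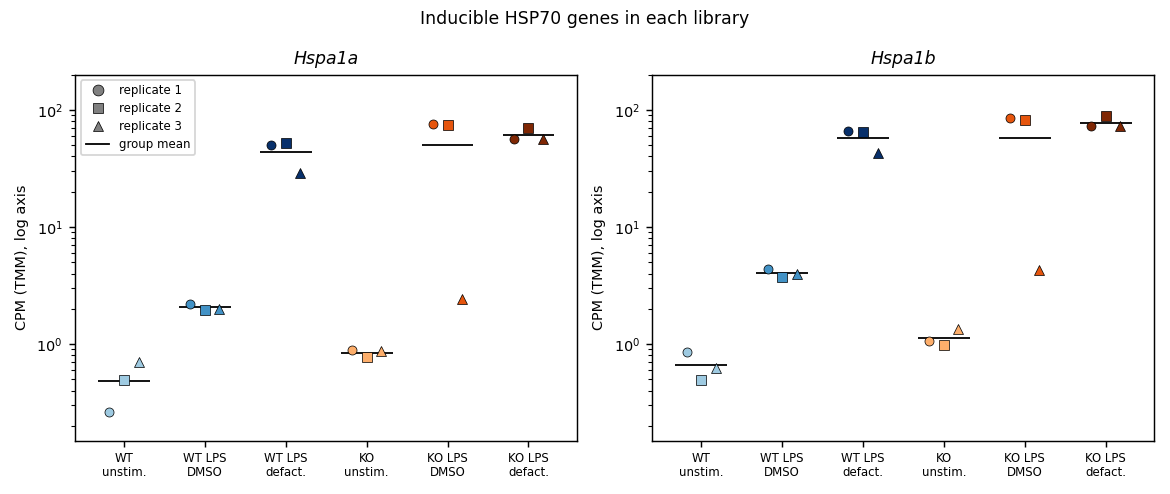
Levels of Hspa1a and Hspa1b in CPM on a log axis in the 18 libraries, with 1 point per library, the shape giving the replicate and the line the group mean. The 3 WT LPS defactinib libraries sit at 28.7 to 52.0 CPM for Hspa1a, and in IRF5 KO LPS DMSO replicates 1 and 2 sit at 75.3 and 73.7 CPM and replicate 3 at 2.45 CPM.

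LPS with DMSO raised Hspa1b in WT cells, with a log2 fold change of 2.62 (SE 0.74, adjusted p = 0.00993). For Hspa1a the value was 2.09 (SE 0.87, adjusted p = 0.0664), which did not pass, although it did with DESeq2 (adjusted p = 0.0152), with only the groups compared (0.000101), with the pair summed (0.0148) and without IRF5 KO LPS DMSO replicate 3 (1.56e-05). The Hspa1b call was lost under limma-voom (adjusted p = 0.235) and with the fold threshold inside the test (adjusted p = 0.0767), and its adjusted p ran from 2.04e-08 to 0.0439 as each library was left out. Defactinib raised both genes further in WT cells, by 4.40 on the log2 scale for Hspa1a (SE 0.80, adjusted p = 0.000316), a 21.1-fold change, and by 3.85 for Hspa1b (SE 0.69, adjusted p = 0.000281), a 14.4-fold change. These 2 calls held in every alternative run, with log2 values of 4.06 to 4.64 for Hspa1a and 3.76 to 4.06 for Hspa1b. The bulk libraries do not tell a rise in every cell from a rise in some of the cells, and fewer cells of a type and less RNA per cell cannot be told apart.

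LPS with DMSO raised Hspa1a in IRF5 KO cells by 5.90 on the log2 scale (SE 0.87, adjusted p = 0.000533) and Hspa1b by 5.66 (SE 0.76, adjusted p = 0.000255) with all 3 replicates. Without replicate 3 the values were 6.46 and 6.21, and without replicates 1 and 2 they were 1.55 (adjusted p = 0.0149) and 1.95 (adjusted p = 0.00013), so that the direction did not depend on them but the size did. Both were lost when only the 2 groups were fitted, with adjusted p of 0.0801 and 0.0733. Defactinib against DMSO in IRF5 KO cells gave 0.27 (SE 0.67, adjusted p = 0.848) for Hspa1a and 0.45 (SE 0.60, adjusted p = 0.69) for Hspa1b with all replicates. When replicates 1 and 2 of the DMSO group were left out the values were 4.61 (adjusted p = 2.26e-07) and 4.17 (adjusted p = 2.27e-08), and without replicate 3 they were -0.30 and -0.10.

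WT cells had less of both transcripts than IRF5 KO cells after LPS with DMSO, with WT minus IRF5 KO log2 values of -4.61 (SE 0.81, adjusted p = 0.000292) for Hspa1a and -3.82 (SE 0.69, adjusted p = 0.000371) for Hspa1b. Against replicate 3 alone they were -0.26 (adjusted p = 0.594) and -0.11 (adjusted p = 0.784). After LPS with defactinib the genotypes gave -0.48 (SE 0.67, adjusted p = 0.611) and -0.43 (SE 0.60, adjusted p = 0.615), although the 3 libraries of each genotype did not overlap. Without replicate 3 of IRF5 KO LPS DMSO these values passed the adjusted p (0.0387 and 0.024), and without its replicates 1 and 2 that of Hspa1b did (0.0384) and that of Hspa1a did not (0.0622). In unstimulated cells the genotypes gave -0.80 (SE 0.91, adjusted p = 0.668) and -0.78 (SE 0.77, adjusted p = 0.614), also without overlap. That of Hspa1b passed without replicate 3 of IRF5 KO LPS DMSO (adjusted p = 0.0229) and with only the groups compared (0.0359), and that of Hspa1a did not (0.0773 and 0.0719). Without replicates 1 and 2 of IRF5 KO LPS DMSO the values were -0.80 for Hspa1a and -0.77 for Hspa1b.

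Hspa8, the constitutive HSP70, moved far less. Its WT levels were 468, 463 and 481 CPM unstimulated, 423, 406 and 472 CPM after LPS with DMSO and 804, 693 and 851 CPM after LPS with defactinib. Its IRF5 KO levels were 515, 566 and 514 CPM unstimulated, 631, 648 and 530 CPM after LPS with DMSO and 556, 512 and 534 CPM after LPS with defactinib. The WT defactinib libraries were the 3 highest of the 18, and those of IRF5 KO cells overlapped the other IRF5 KO groups.

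Defactinib raised Hspa8 in WT cells by 0.85 on the log2 scale (SE 0.10, adjusted p = 4.25e-06), short of the fold threshold, which it passed with library size alone (1.05) and with the correction for GC content and length (1.20). Its value in IRF5 KO cells was -0.18 (SE 0.10, adjusted p = 0.288). The difference between these effects was 1.03 (SE 0.14, adjusted p = 3.79e-05). It was 0.87 (adjusted p = 0.000154) without replicates 1 and 2 of IRF5 KO LPS DMSO and 1.00 without WT LPS defactinib replicate 3, both under the fold threshold. After LPS with defactinib Hspa8 in WT cells exceeded that in IRF5 KO cells by 0.55 (SE 0.10, adjusted p = 0.000374), a comparison that does not use the IRF5 KO LPS DMSO libraries.

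The balance of inducible to constitutive HSP70 was read as the summed counts of Hspa1a and Hspa1b in percent of the counts of Hspa8 in the same library. It was 0.240%, 0.212% and 0.274% in WT unstimulated libraries, 1.55%, 1.40% and 1.27% after LPS with DMSO and 14.4%, 16.8% and 8.45% after LPS with defactinib. The share in IRF5 KO cells was 0.378%, 0.309% and 0.429% unstimulated, 25.5%, 23.9% and 1.27% after LPS with DMSO and 23.1%, 30.9% and 24.3% after LPS with defactinib. The libraries of the WT groups did not overlap, and those of IRF5 KO LPS DMSO were split as for the single genes. Per exon length, in TPM (transcripts in place of reads, on the scale of CPM), Hspa8 was at 299 ± 18.03 (SD, n = 3) in unstimulated WT cells, Hspa1a at 0.438 ± 0.171 and Hspa1b at 0.643 ± 0.204. In WT LPS defactinib these TPM levels were 377 ± 51.9, 30.4 ± 9.23 and 42.8 ± 10.4.

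**Figure D3:**
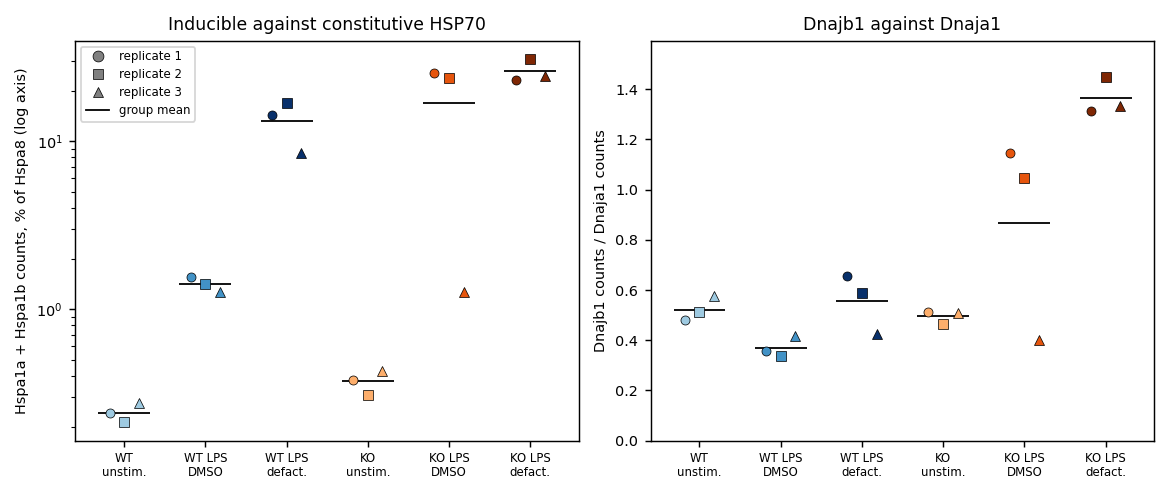
Left, summed counts of Hspa1a and Hspa1b in percent of Hspa8 counts on a log axis, and right, the ratio of Dnajb1 to Dnaja1 counts, in the 18 libraries, with 1 point per library, shapes for replicates and lines for group means. The left panel spans 0.212% to 30.9%, and in the right panel the 3 IRF5 KO LPS defactinib libraries (1.31 to 1.45) and replicates 1 and 2 of IRF5 KO LPS DMSO (1.15 and 1.05) are above all others.

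Hsph1, the HSP110 that exchanges the nucleotide of HSP70, was the third gene called for defactinib in WT cells. It was at 52.2, 54.0 and 53.3 CPM unstimulated, fell to 41.2, 32.4 and 37.0 CPM after LPS with DMSO and was at 102, 72.9 and 104 CPM after LPS with defactinib, with no overlap between the WT groups. The IRF5 KO levels of Hsph1 were 64.2, 52.6 and 59.2 CPM unstimulated, 88.3, 84.2 and 53.1 CPM after LPS with DMSO and 88.5, 85.0 and 86.2 CPM after LPS with defactinib. All 3 IRF5 KO defactinib libraries were above the unstimulated ones, and the DMSO libraries were split between the levels of both.

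In WT cells the fall of Hsph1 with LPS was -0.53 on the log2 scale (SE 0.17, adjusted p = 0.0187), which passed the adjusted p alone, and it was -0.45 (adjusted p = 0.0724) without WT LPS DMSO replicate 2. Its rise with defactinib was 1.33 (SE 0.17, adjusted p = 1.15e-05) and was 1.26 to 1.67 over the alternatives, of which the fold threshold inside the test alone lost the call (adjusted p = 0.0548). In IRF5 KO cells LPS gave 0.36 (SE 0.17, adjusted p = 0.0996), which was 0.55 (adjusted p = 0.00139) without replicate 3 of the DMSO group and -0.13 (adjusted p = 0.777) without its replicates 1 and 2. Defactinib gave 0.20 (SE 0.17, adjusted p = 0.492) there, which was 0.01 (adjusted p = 0.986) and 0.69 (adjusted p = 0.00407) in the same order. The genotype difference after LPS with DMSO was -1.03 (SE 0.17, adjusted p = 0.000156). Its fold call was lost without WT LPS DMSO replicate 2 (-0.96), with replicate 1 (-0.91) or 2 (-0.96) of IRF5 KO LPS DMSO left out, with both of these left out (-0.54), with limma-voom (-0.99) and with the fold threshold inside the test (adjusted p = 0.737). The effect of defactinib differed between genotypes by 1.13 (SE 0.24, adjusted p = 0.00164), and by 0.66 (adjusted p = 0.0167) without replicates 1 and 2 of IRF5 KO LPS DMSO.

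The J proteins deliver substrates to HSP70. Dnajb1 kept within a narrow range in WT cells, at 33.3, 33.1 and 35.3 CPM unstimulated, 35.8, 35.0 and 39.4 CPM after LPS with DMSO and 33.8, 31.0 and 25.0 CPM after LPS with defactinib. The IRF5 KO levels of Dnajb1 were 34.8, 32.7 and 34.1 CPM unstimulated, 57.8, 56.4 and 34.1 CPM after LPS with DMSO and 77.6, 81.3 and 81.5 CPM after LPS with defactinib. The IRF5 KO defactinib libraries were the 3 highest of the 18, above replicates 1 and 2 of IRF5 KO LPS DMSO.

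Defactinib gave -0.29 for Dnajb1 in WT cells (log2 fold change, SE 0.16, adjusted p = 0.119) and 0.70 in IRF5 KO cells (SE 0.16, adjusted p = 0.0324). The rise in IRF5 KO cells was 0.49 (adjusted p = 0.00795) without replicate 3 and 1.22 (adjusted p = 4.02e-06) without replicates 1 and 2 of the DMSO group, and it missed the adjusted p without any one of the 3 IRF5 KO LPS defactinib libraries (up to 0.127) and, by a small margin, without WT unstimulated replicate 1 or 2 (0.051 and 0.0508). The difference between the effects was -0.99 (SE 0.22, adjusted p = 0.00249), and -1.49 (adjusted p = 4.14e-06) without replicates 1 and 2. After LPS with defactinib Dnajb1 was lower in WT than in IRF5 KO cells by -1.42 on the log2 scale (SE 0.16, adjusted p = 4.70e-06), or 2.67-fold. This is the one called difference between genotypes that does not use the IRF5 KO LPS DMSO libraries, and it was -1.49 to -1.29 in all alternatives and called in each.

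Dnaja1, another J protein of the cytosol, had WT levels of 69.5, 64.7 and 61.3 CPM unstimulated, 99.6, 104 and 94.7 CPM after LPS with DMSO and 51.5, 52.7 and 59.2 CPM after LPS with defactinib. These 3 groups did not overlap, with LPS raising it by 0.61 on the log2 scale (SE 0.14, adjusted p = 0.00285) and defactinib lowering it by -0.87 (SE 0.15, adjusted p = 0.000135). Dnaja1 in IRF5 KO cells was at 68.2, 70.3 and 67.03 CPM unstimulated, 50.4, 53.9 and 84.7 CPM after LPS with DMSO and 59.1, 56.1 and 61.1 CPM after LPS with defactinib. Replicate 3 of IRF5 KO LPS DMSO was above all unstimulated libraries, as in WT cells, and replicates 1 and 2 were below them. The defactinib effect in IRF5 KO cells was -0.10 (SE 0.14, adjusted p = 0.714), 0.17 (adjusted p = 0.24) without replicate 3 and -0.54 (adjusted p = 0.000944) without replicates 1 and 2.

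The ratio of Dnajb1 to Dnaja1 counts was 0.479 to 0.576 in unstimulated WT and 0.466 to 0.511 in unstimulated IRF5 KO libraries. It was 0.335 to 0.416 in WT LPS DMSO and 0.423 to 0.657 in WT LPS defactinib. The IRF5 KO ratios were 1.15, 1.05 and 0.402 in replicates 1, 2 and 3 of LPS with DMSO and 1.31 to 1.45 after LPS with defactinib, so that the WT and IRF5 KO defactinib libraries did not overlap.

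Hsp90aa1, the stress-responsive cytosolic HSP90 that folds kinases and receptors, rose with LPS in both genotypes in CPM after TMM scaling. It was at 208, 200.2 and 197 CPM in unstimulated WT libraries, 325, 300.1 and 311 CPM after LPS with DMSO and 308, 233 and 267 CPM after LPS with defactinib. Its IRF5 KO levels were 262, 256 and 249.8 CPM unstimulated, 365, 350.4 and 311 CPM after LPS with DMSO and 376, 356 and 372 CPM after LPS with defactinib. In TPM, without TMM scaling, WT levels were 140.4 ± 13.9 unstimulated (SD, n = 3) and 166 ± 4.11 after LPS with DMSO. The IRF5 KO levels in TPM were 199.5 ± 6.07 and 189 ± 19.9 in the same order, which is no rise. LPS gave a log2 fold change of 0.63 (SE 0.09, adjusted p = 5.52e-05) in WT and 0.42 (SE 0.09, adjusted p = 0.00471) in IRF5 KO cells, with no overlap of CPM in either. Over the alternatives these values were 0.25 to 0.67 in WT and 0.18 to 0.52 in IRF5 KO cells. The IRF5 KO value was 0.30 (adjusted p = 0.162) without replicates 1 and 2. Defactinib gave -0.21 (SE 0.09, adjusted p = 0.0628) in WT and 0.10 (SE 0.09, adjusted p = 0.527) in IRF5 KO cells. Between genotypes in unstimulated cells it passed the adjusted p, at -0.34 (SE 0.09, adjusted p = 0.0188), which was missed without WT unstimulated replicate 2 or 3 or IRF5 KO unstimulated replicate 1 or 2 (adjusted p up to 0.0778).

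The mitochondrial chaperonin genes Hspd1 (HSP60) and Hspe1 (HSP10) share a promoter region and encode the barrel and the lid of one folding chamber. Hspd1 was at 186, 171 and 172 CPM in unstimulated WT libraries, 171, 137 and 159.9 CPM after LPS with DMSO and 254, 214 and 187 CPM after LPS with defactinib. Its IRF5 KO levels were 219, 208 and 201 CPM, then 244, 243 and 202 CPM, and 253, 239 and 263 CPM in the same order of groups. Defactinib raised it in WT cells by 0.48 on the log2 scale (SE 0.11, adjusted p = 0.0021), which passed the adjusted p alone, and LPS gave -0.18 (SE 0.11, adjusted p = 0.233).

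Hspe1 was at 62.4, 57.7 and 54.6 CPM in unstimulated WT libraries, 69.8, 56.2 and 60.5 CPM after LPS with DMSO and 94.4, 107 and 105 CPM after LPS with defactinib. Its IRF5 KO levels were 78.4, 70.5 and 66.3 CPM, then 120.3, 118 and 74.9 CPM, and 111, 106 and 121 CPM. Defactinib raised it in WT cells by 0.72 (SE 0.15, adjusted p = 0.000709), without overlap. In IRF5 KO cells LPS raised it by 0.54 (SE 0.15, adjusted p = 0.0122), which was missed once replicate 1 or 2 of the DMSO group or replicate 3 of the unstimulated group was left out (adjusted p up to 0.0662) and was 0.08 (adjusted p = 0.851) without both of the former. Defactinib gave 0.11 (SE 0.15, adjusted p = 0.692). The ratio of Hspe1 to Hspd1 counts was 0.317 to 0.358 in the 6 unstimulated libraries and 0.370 to 0.565 in the 12 LPS libraries, which did not overlap.

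Hsf1, the transcription factor that drives heat shock genes and is controlled mainly as a protein, was measured as its transcript only. It was at 15.5, 14.7 and 15.9 CPM in unstimulated WT libraries, 15.4, 15.3 and 12.99 CPM after LPS with DMSO and 23.05, 23.9 and 24.7 CPM after LPS with defactinib. Its IRF5 KO levels were 19.5, 19.1 and 19.1 CPM unstimulated, 26.0, 25.6 and 17.96 CPM after LPS with DMSO and 25.0, 29.1 and 23.98 CPM after LPS with defactinib. The WT defactinib libraries were above all other WT libraries, and replicate 3 of IRF5 KO LPS DMSO was below the unstimulated IRF5 KO libraries. Defactinib raised Hsf1 in WT cells by 0.71 on the log2 scale (SE 0.13, adjusted p = 0.000277), and LPS gave -0.08 (SE 0.13, adjusted p = 0.673). In IRF5 KO cells LPS gave 0.27 (SE 0.13, adjusted p = 0.105), which was 0.42 (adjusted p = 0.0013) without replicate 3 of the DMSO group and -0.08 (adjusted p = 0.832) without its replicates 1 and 2. Defactinib gave 0.17 (SE 0.13, adjusted p = 0.45) there, which was 0.01 (adjusted p = 0.947) and 0.52 (adjusted p = 0.00595) in the same order.

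**Figure D4:**
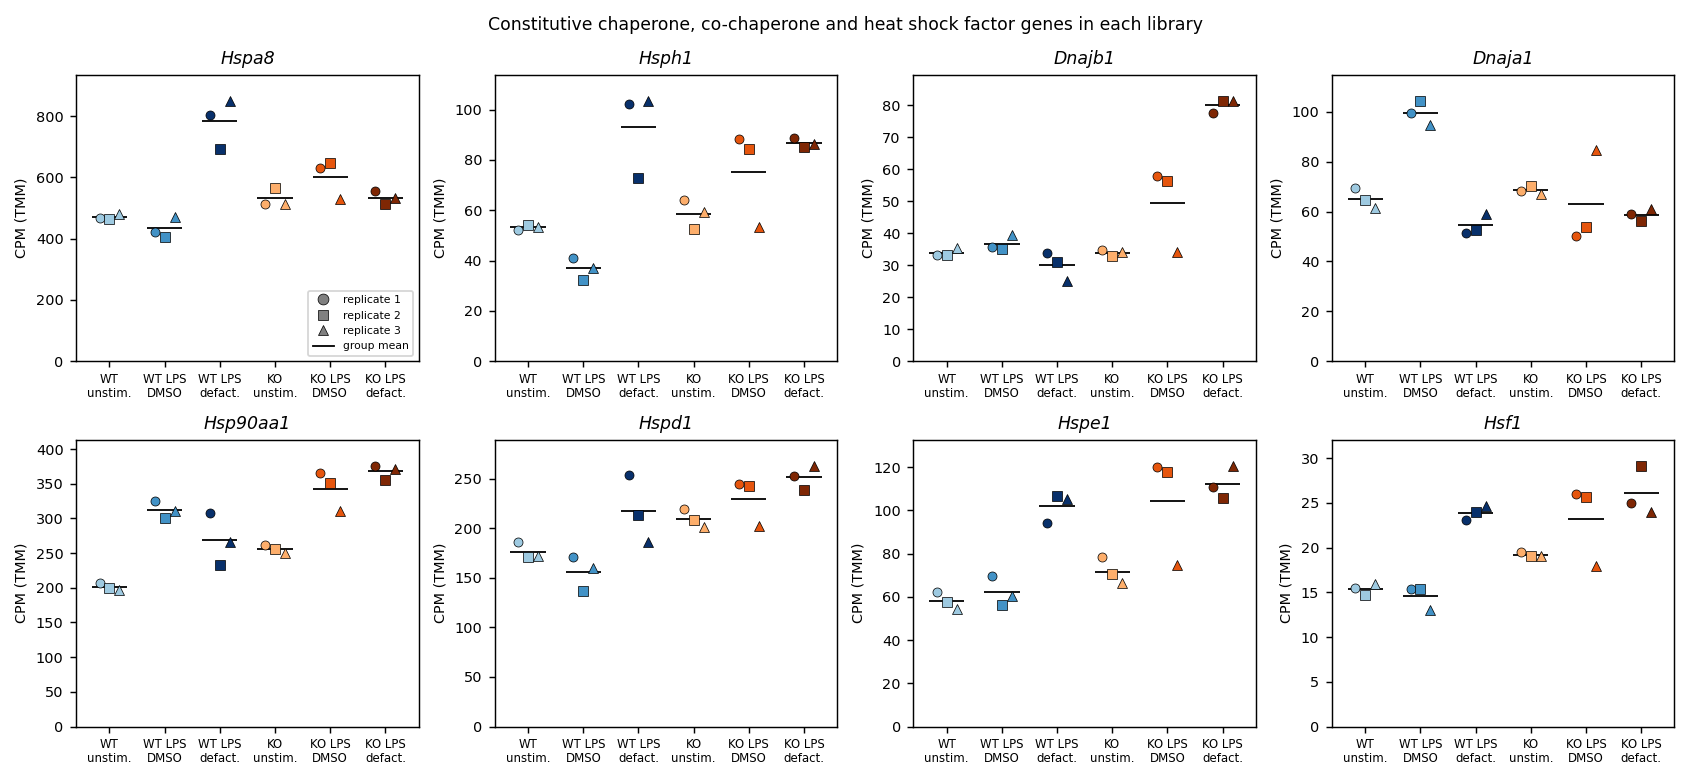
Levels in CPM of the 8 genes other than Hspa1a and Hspa1b in the 18 libraries, on linear axes from 0, with 1 point per library, shapes for replicates and lines for group means. Hspa8 is highest in the 3 WT LPS defactinib libraries (693 to 851 CPM), Dnajb1 in the 3 IRF5 KO LPS defactinib libraries (77.6 to 81.5 CPM) and Dnaja1 in the 3 WT LPS DMSO libraries (94.7 to 104 CPM).

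Ordered per exon length in unstimulated WT cells, the levels were Hspa8 at 299 ± 18.03 TPM (SD, n = 3), Hspd1 at 183 ± 19.4, Hsp90aa1 at 140.4 ± 13.9, Hspe1 at 108 ± 14.7, Dnajb1 at 28.9 ± 1.30, Hsf1 at 20.8 ± 1.17, Dnaja1 at 20.7 ± 2.74, Hsph1 at 20.04 ± 1.57, Hspa1b at 0.643 ± 0.204 and Hspa1a at 0.438 ± 0.171. Hsf1, Dnaja1 and Hsph1 differed from each other by less than the SD of Dnaja1, and the libraries of Hspa1a and Hspa1b overlapped. In IRF5 KO LPS defactinib, Hspa1b at 55.0 ± 4.64 TPM, Dnajb1 at 49.7 ± 1.78 and Hspa1a at 40.5 ± 3.46 stood above Hsf1 at 25.6 ± 1.74, Hsph1 at 23.7 ± 1.23 and Dnaja1 at 13.5 ± 1.03.

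A wider set of 100 chaperone and heat shock genes in 10 lists, of which 92 were tested, is given for comparison. Defactinib in WT cells called 16 of the 92, 5 higher and 11 lower, beside 29.1% of all genes called in either direction, and their median log2 fold change was 0.24. LPS called 7 in WT cells (4 higher, 3 lower) beside 21.3% of all genes, and 4 in IRF5 KO cells (2 higher, 2 lower) beside 13.3%. The latter count was 7 without replicate 3 of IRF5 KO LPS DMSO, beside 26.2% of all genes then called, and 0 of 94 without replicates 1 and 2, beside 2.71%. It was 1 without replicate 1 (beside 6.46% of all genes) or replicate 2 (beside 6.65%) of that group. It was also 1 without replicate 1 or 3 of IRF5 KO unstimulated, and 7 with library size alone, for which the shares of all genes are not given here. Defactinib in IRF5 KO cells called 0 of the 92 by edgeR, where 0.919% of all genes were called. At an unadjusted p below 0.05 there were 24, and the share of all genes at this rule was not computed. By adjusted p alone 4 passed, beside 3.36% of all genes. Without replicate 3 of IRF5 KO LPS DMSO 10 passed, 9 of them upwards, beside 7.83%, and 1 was called, beside 1.45%. Without replicate 2 it also called 1, beside 5.55%. It called 3 of the 94 then tested without replicates 1 and 2, beside 19.2% of all genes.

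Among the other J proteins, Dnajb4 rose with LPS in WT cells by 1.36 on the log2 scale (SE 0.25, adjusted p = 0.000404), from 17.2 ± 0.501 to 44.1 ± 11.6 CPM (SD, n = 3), and fell with defactinib to 6.95 ± 3.52 CPM, a log2 change of -2.66 (SE 0.26, adjusted p = 1.02e-06). In the other direction, Dnajb14, a J protein of the endoplasmic reticulum membrane, fell with LPS in WT cells by -1.14 (SE 0.12, adjusted p = 1.73e-06), from 116 ± 2.03 to 52.7 ± 8.01 CPM. In these cells 5 of the 12 other J proteins were called for defactinib, 1 higher (Dnaja4) and 4 lower (Dnajb4, Dnajb5, Dnajb12 and Dnaja2), beside 10.4% of all genes called higher and 18.6% called lower.

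Of the 23 co-chaperones of HSP70 and members of the HSP90 list, 5 were called for defactinib in WT cells, 4 lower and 1 higher, beside 29.1% of all genes called. By adjusted p alone 9 passed upwards and 4 downwards, beside 57.0% of all genes. The median log2 fold change was 0.17 for the HSP70 co-chaperones and 0.02 for the HSP90 list. With defactinib in WT cells Bag5, a nucleotide exchange factor, fell from 17.2 ± 1.56 to 4.74 ± 0.705 CPM (log2 -1.86, SE 0.16, adjusted p = 1.97e-07), and Bag3, Bag4 and Bag5 were the 3 called lower among the 9 of this list while Bag2 was called higher. Ptges3, the p23 co-chaperone of HSP90, fell from 108 ± 3.58 to 37.9 ± 1.54 CPM (log2 -1.51, SE 0.23, adjusted p = 6.12e-05) and was the 1 of 14 called in its list. Of the 14 genes of the TRiC chaperonin, which folds actin and tubulin, and of prefoldin, 12 passed the adjusted p upwards for LPS in IRF5 KO cells, beside 37.5% of all genes. For defactinib in WT cells 8 passed upwards and 2 downwards, beside 57.0%, and all these changes were less than 2-fold. The count for LPS was 12 without replicate 3 of IRF5 KO LPS DMSO, beside 58.3% of all genes, and 1 without replicates 1 and 2, beside 4.76%. For defactinib in WT cells the 15 chaperones of the endoplasmic reticulum had 7 that passed upwards and 3 downwards, beside the same 57.0% of all genes, and both polyubiquitin genes passed upwards, again by less than 2-fold.

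Of the mitochondrial genes, Htra2, a protease of the intermembrane space, rose with LPS in WT cells by 1.33 (SE 0.09, adjusted p = 4.36e-08), from 48.6 ± 3.09 to 122 ± 9.66 CPM. Clpx, the unfoldase of the matrix protease ClpXP, fell with defactinib in WT cells by -1.76 (SE 0.34, adjusted p = 0.000427), from 24.6 ± 0.756 to 7.25 ± 0.229 CPM, and with LPS in IRF5 KO cells by -1.02 (SE 0.33, adjusted p = 0.0254). Its IRF5 KO LPS DMSO levels were 7.37, 6.10 and 23.1 CPM, against 23.8 to 26.0 CPM in the unstimulated libraries. The value was -1.88 (adjusted p = 1.99e-10) without replicate 3 and -0.09 (adjusted p = 0.776) without replicates 1 and 2. Of the small heat shock proteins, Hspb1 was singled out after its values were seen, since its level was too low for the naming rule. It had 0 to 4 counts in each of the WT unstimulated, WT LPS DMSO and IRF5 KO unstimulated libraries and in IRF5 KO LPS DMSO replicate 3, and 62 to 600 counts in each defactinib library and in replicates 1 and 2 of IRF5 KO LPS DMSO (105 and 123).

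**Figure D5:**
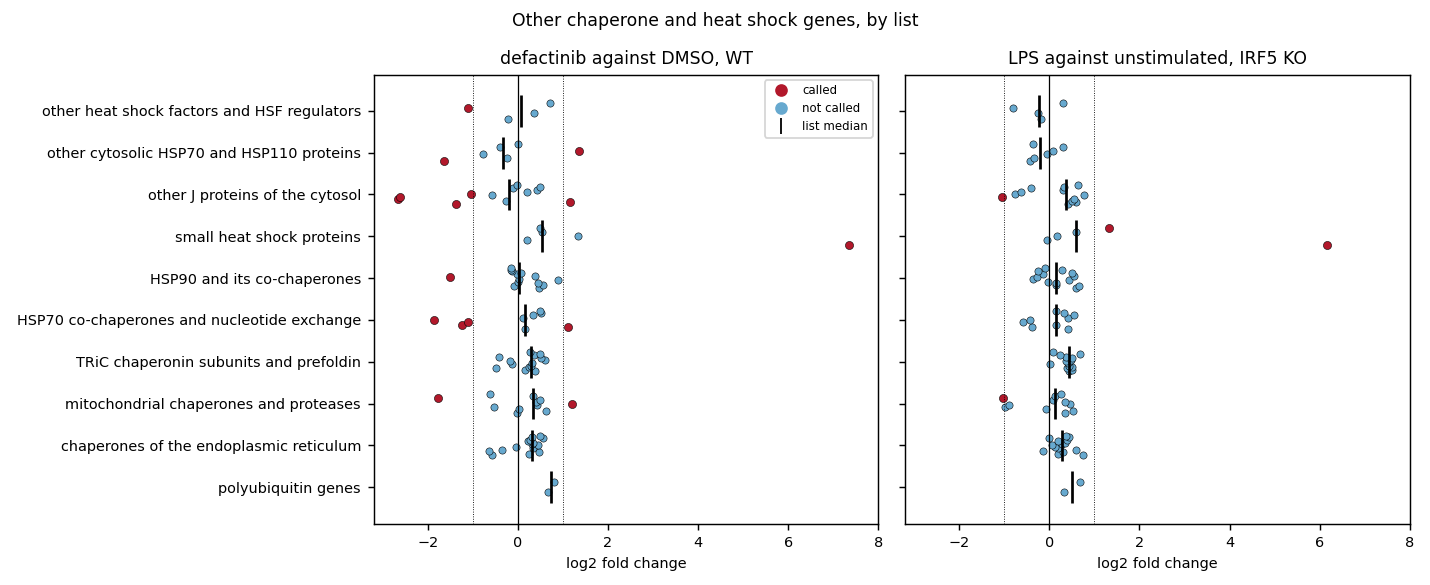
Log2 fold changes of the 92 other tested chaperone and heat shock genes (x axis) by list (rows), for defactinib against DMSO in WT cells and for LPS against unstimulated in IRF5 KO cells, with 1 point per gene, red where called, and a bar at the median of each list. The point far to the right in both panels is Hspb1, at 7.34 and 6.17, values fitted against groups with almost no counts.

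Over the 18 libraries, the genes whose levels ran most like Hspa1a, by Pearson correlation of log2 CPM, were Hspa1b (r = 0.991), Cct7 (0.985) and Rpl15 (0.980), and those most like Hspa1b after Hspa1a, which was left out, were Cct7 (0.986), Psmb1 (0.979) and Eif3h (0.979). Such values are a description over libraries that share groups and depth. For Hspa8 the nearest was Gm15459 (0.997), before Mapkap1 (0.953) and Gm8355 (0.947). For Hsp90aa1 it was Gm12346 (0.995), before Trps1 (0.973) and Arap2 (0.973). Gm15459, Gm8355 and Gm12346 are processed pseudogenes, intronless copies of the same sequence. Of the windows of 150 bases in Gm15459 and Gm8355, 61.0% and 27.1% also occur in Hspa8 transcripts, and 44.7% of those in Gm12346 occur in Hsp90aa1. Only uniquely mapped pairs were counted, so that the levels of these genes leave out reads that fit both copies equally. For Hspd1 the nearest was likewise a pseudogene, Hspd1-ps3 (0.967), before Anp32b (0.956) and Paics (0.952). For Hspe1 they were Anp32a (0.975), Gm8121 (0.972) and Pdap1 (0.968). Gm8121 is a processed pseudogene too, and 0% of its windows of 150 bases occur in Hspe1 transcripts. Hsph1 was nearest to Pigu (0.965), Acad11 (0.960) and Tmem260 (0.959). Dnajb1 was nearest to Zbtb17 (0.966), Pcf11 (0.965) and Rbm15 (0.946). Dnaja1 was nearest to Sap30 (0.978), Wdr48 (0.977) and Slfn9 (0.976), and Hsf1 to Gngt2 (0.968), Mrrf (0.962) and Dynll2 (0.961).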

How the data were processed

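RNA of 18 macrophage libraries was sequenced by the authors as 150-base read pairs, mapped with STAR to mm10 and counted per Ensembl gene with featureCounts 1.6.3, strand-specifically and with uniquely mapped pairs only, per the file headers and the study's methods. The deposited values are raw counts of 50600 genes, with no normalization.

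From these counts, genes with enough reads (filterByExpr, 15663) were scaled by TMM and fitted over all 6 groups with edgeR 4.0.16 (robust quasi-likelihood F test, R 4.3.3), with no covariate, for 9 comparisons. Adjusted p-values are Benjamini-Hochberg over all tested genes, and SE is the log2 fold change divided by the square root of F. CPM values use TMM-scaled library sizes, and TPM values use the summed exon lengths of the table. DESeq2 1.42.0, limma-voom (limma 3.58.1), other scalings, filters and thresholds, a replicate block and leaving out each library made up 31 alternatives. The fits were tested on simulated data.

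The 10 genes, the other lists and the tests were chosen with earlier results of these data known. All 10 genes are named. In each other list the called gene that rose most and the one that fell most in each comparison of LPS or defactinib within a genotype are named where the mean log2 CPM is at least 3, as are the 3 genes most correlated with each of the 10. Promoter sequences are from RefSeq (GRCm38.p6).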

Additional observations from a re-analysis of the deposited data

Results flagged for a closer look

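The effect of LPS on Hspa1a differed between the genotypes in an interaction test, by -3.81 on the log2 scale (WT minus IRF5 KO, edgeR adjusted p = 0.0401). It was -4.36 without replicate 3 of IRF5 KO LPS DMSO and 0.54 (adjusted p = 0.556) without replicates 1 and 2.

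The effect of defactinib differed between the genotypes in the same way of testing for 4 genes. For Hspa1a the difference was 4.13 (adjusted p = 0.00527), 4.69 without replicate 3 of IRF5 KO LPS DMSO and -0.20 (adjusted p = 0.758) without replicates 1 and 2. For Hspa1b it was 3.39 (adjusted p = 0.00779), 3.94 and -0.30 (adjusted p = 0.485) in the same order. For Hspa8 it was 1.03 (adjusted p = 3.79e-05), 1.11 and 0.87 (adjusted p = 0.000154), so that this difference kept its sign and passed the adjusted p in each of the 3 fits. For Hsph1 it was 1.13 (adjusted p = 0.00164), 1.33 and 0.66 (adjusted p = 0.0167), likewise. With limma-voom the differences for the inducible genes did not pass, at 2.90 for Hspa1a (adjusted p = 0.157) and 2.42 for Hspa1b (adjusted p = 0.138).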

How the results depend on the processing

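Of 2628 comparisons of a gene's value with its value under another setting, 2528 kept direction and side of the threshold, 37 reversed, 27 gained and 36 lost a call. The cause was not tested. Reads shared by near-identical copies and the few counts of the inducible genes in unstimulated cells limit these values. Fitting library size alone moved the median of all genes by -0.38 for LPS in WT cells, -0.24 for LPS in IRF5 KO cells and 0.20 for defactinib in WT cells.

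Of the 10 genes, LPS in WT cells called 1, and 2 with DESeq2, with only the groups compared and without replicates 1 and 2 of IRF5 KO LPS DMSO, 4 by false discovery rate alone, 0 with limma-voom or the fold threshold inside the test (glmTreat), and 1 to 2 as each library was left out. LPS in IRF5 KO cells called 2, and 5 by false discovery rate alone and 0 with only the groups compared. By false discovery rate alone the counts were 8 for defactinib in WT cells (in place of 3), 1 in IRF5 KO cells (0), 1 for genotype in unstimulated cells (0), 9 after LPS with DMSO (3), 3 after LPS with defactinib (1), 3 for the interaction with LPS (1) and 8 for that with defactinib (4). Without replicates 1 and 2 of IRF5 KO LPS DMSO they were 3 for defactinib in IRF5 KO cells, 0 for genotype after LPS with DMSO, 0 for the interaction with LPS and 1 for that with defactinib. The interaction with defactinib called 2 with glmTreat. The interaction with LPS called 3 with library size alone, 2 with a filter of 5 CPM, DESeq2 or the loess correction, 0 without a filter, with limma-voom, glmTreat or only the groups compared, and 0 to 4 as each library was left out.

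The replicate numbers were not taken as pairs: over 45 pairs of same-numbered libraries the median correlation of residuals was 0.005, and 4 pairs were above 0.1. With the number as a block the interaction with LPS called 0 of the 10 genes (Hspa1a -3.62, adjusted p = 0.0595), and no other count moved by more than 1.5 times.

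These log2 values changed sign. With library size alone, LPS gave -0.26 for Dnajb1 and -0.29 for Hspe1 in WT cells and -0.066 for Hspa8 and -0.11 for Hspd1 in IRF5 KO cells, defactinib in IRF5 KO cells gave -0.017 for Hsp90aa1 and -0.00057 for Hspe1, genotype gave -0.11 for Dnajb1 in unstimulated cells, and the interaction with defactinib gave 0.0048 for Hsp90aa1. With the loess correction for GC content and length, Hspe1 was -0.20 for LPS in WT cells, Hsp90aa1 0.16 for defactinib in WT cells, -0.079 for the interaction with LPS and 0.034 for that with defactinib, Dnaja1 0.0029 for genotype in unstimulated cells and 0.092 after LPS with defactinib, and Dnajb1 -0.012 for genotype in unstimulated cells. The last was -0.017 without a filter, -0.011 with 5 CPM, -0.0013 with limma-voom and -0.029 to 0.020 as libraries were left out. Leaving out each library gave -0.30 to 0.66 for Hspa1a, -0.10 to 0.86 for Hspa1b, -0.25 to 0.17 for Dnaja1 and -0.083 to 0.21 for Hspe1 for defactinib in IRF5 KO cells, and -0.40 to 0.032 for Dnaja1 for LPS in IRF5 KO cells. Without replicates 1 and 2 of IRF5 KO LPS DMSO, the interaction with LPS was 0.54 for Hspa1a, 0.67 for Hspa1b, 0.086 for Dnajb1 and 0.0097 for Hspe1, that with defactinib -0.20 for Hspa1a and -0.30 for Hspa1b, LPS in IRF5 KO cells -0.13 for Hsph1, 0.32 for Dnaja1, -0.035 for Hspd1 and -0.082 for Hsf1, and genotype after LPS with DMSO 0.090 for Dnajb1.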
